A study of Mus musculus with 19 samples.

Results

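Immunoglobulin transcripts in mouse spleen were described through 34 probe sets of 41345 on the array. A probe set entered if it listed at least 1 gene symbol and if each listed symbol was a variable (V), diversity (D) or joining (J) segment or a constant gene of the heavy, kappa or lambda chain. Of the 34, 14 listed heavy chain symbols, 18 kappa symbols, 1 a lambda symbol and 1 a mixture, and 29 listed a single symbol. They carried 23 distinct symbols: Ighm and Ighg3 among constant genes, 4 heavy V segments, 15 kappa V segments, Igkj1 and Iglv1. No listed symbol began with Igkc, Iglc, Igha, Ighe, Ighg1 or Ighg2, so kappa and lambda constant genes and IgA, IgE, IgG1 and IgG2 were not analysed here.

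The study concerned lymphoma in mice with conditional expression of HGAL, an adaptor protein that germinal centre B cells normally make and that acts in B cell receptor signalling. Total RNA of the whole spleen was hybridised to 1 array per animal. Tumour-bearing spleens came from Rosa26-HGAL+Aid-Cre (n = 4), Rosa26-HGAL+Mb1-Cre (n = 5) and Rosa26-HGAL+Sca1-Cre (n = 4) mice. Rosa26-HGAL+Sca1-Cre spleens were also taken before tumours (n = 3), and wild-type spleens served as controls (n = 3). As background, the Aid promoter is active in activated and germinal centre B cells, the mb1 (Cd79a) gene from early B cell development on, and Sca1 in blood stem and progenitor cells. The wild-type mice carried neither transgene, so HGAL and Cre cannot be told apart here, and strain, age and tumour cell content were not given in the labels used here. All animals lived in a conventional facility with exposure to common pathogens.

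Each B cell assembles 1 heavy chain V, D and J combination and 1 light chain V and J combination, and its daughters inherit both. A mixed population therefore carries many V segments at once, while a clone carries one. Ighm encodes the constant region of IgM, the first class a B cell makes, and Ighg3 that of IgG3, to which B cells can switch. Plasma cells hold far more immunoglobulin RNA per cell than other B cells. In whole spleen, fewer cells of a type and less RNA per cell cannot be told apart. V segments of a family are similar in sequence, so a probe set may also read relatives of the symbol it lists. For Ighm (7 probe sets), Igkv5-43 (3) and Ighg3 (2), several probe sets shared a symbol and did not always move together. Symbols are those of the platform annotation, and whether each probe set reads the gene it lists was not tested.

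All values below are log2 expression per probe set, and differences are differences of log2 values (a difference of 1 is a doubling). Array medians over the whole table were nearly equal, at 5.23 to 5.40. The immunoglobulin probe sets were bright, with means over the 19 arrays from 6.59 to 13.51. The 5 with a mean of at least 13 spanned only 0.34 to 1.36 between their lowest and highest arrays, whereas the 11 with a mean under 10 spanned 3.01 to 6.18. Levels of different probe sets were not compared as amounts. Several arrays stood apart. Exocrine pancreas genes were high in Mb1-Cre tumour replicate 2 (list mean 2.73 higher than in wild type) and raised in wild-type replicate 2 (0.86). Germinal centre genes were high in Sca1-Cre tumour replicate 4 (3.49), and B cell genes were low in Aid-Cre tumour replicate 2 (-3.82) and Sca1-Cre tumour replicate 3 (-2.41). The B cell list itself was clearly present in wild-type spleens, where Cd79a averaged 12.17 ± 0.19 and Ms4a1 (CD20) 11.40 ± 0.24 (SD, n = 3).

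**Figure D1:**
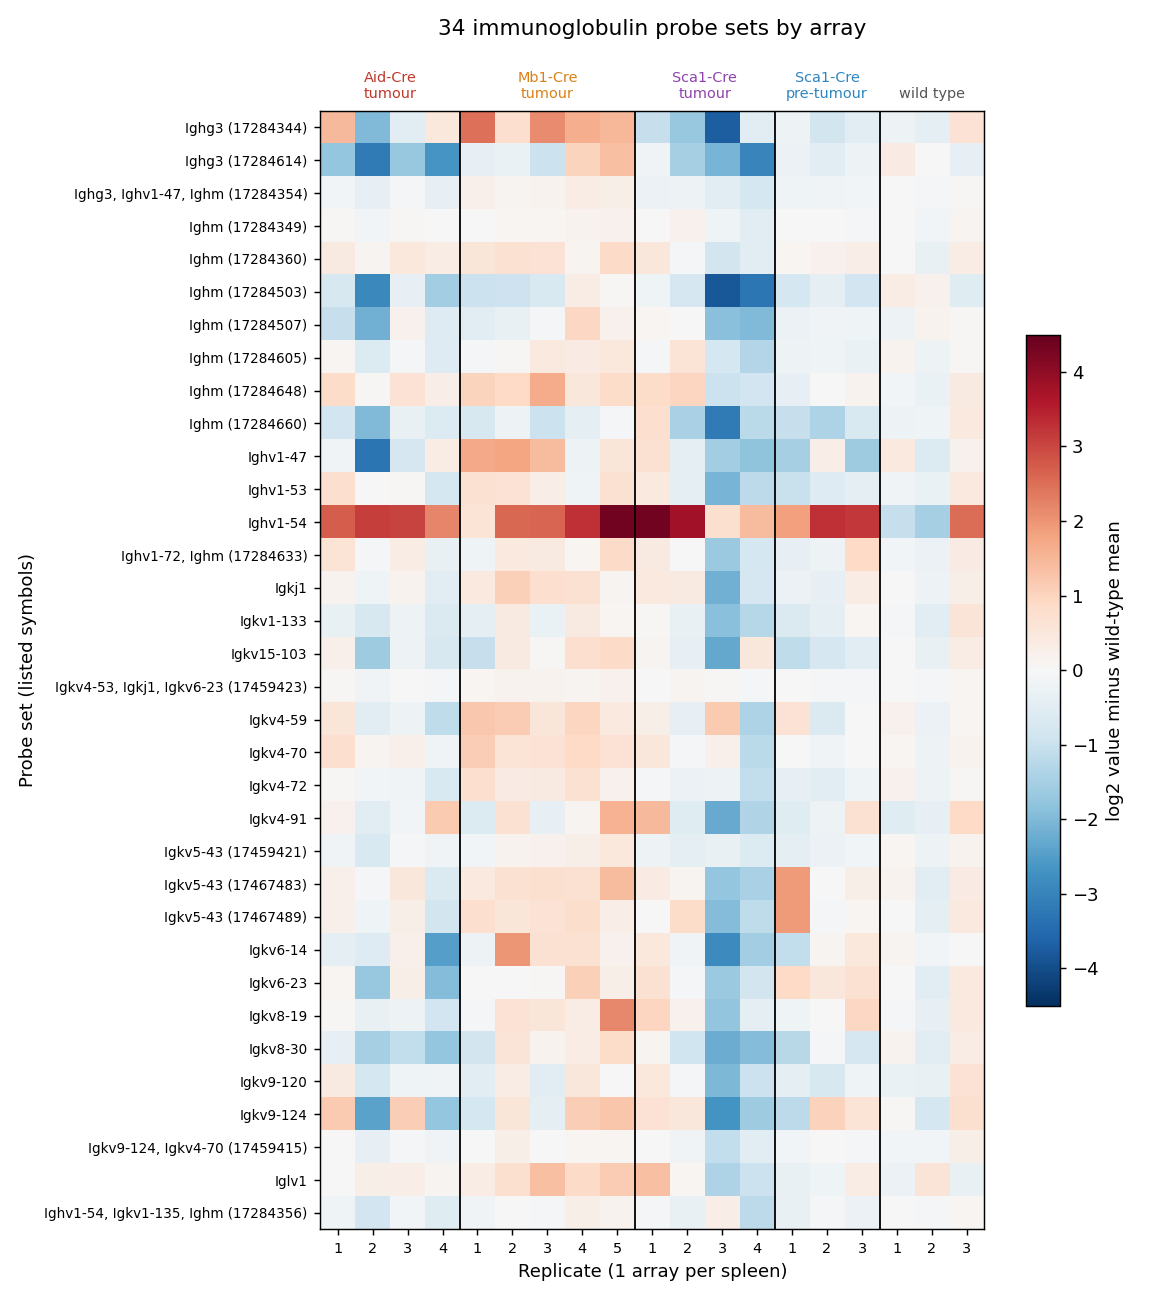
The log2 value minus the wild-type mean is shown in colour for each of the 34 probe sets (down the page) and each of the 19 spleens (across, by group and replicate). Sca1-Cre tumour replicates 3 and 4 are blue in most probe sets, Mb1-Cre tumour spleens are mostly light red, and Ighv1-54 is red in nearly every array with 2 of 3 wild-type arrays low.

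Tumour spleens of the 3 lines did not share a direction. The median immunoglobulin probe set differed from wild type by -0.24 in Aid-Cre tumours, by 0.30 in Mb1-Cre tumours and by -0.51 in Sca1-Cre tumours, while medians over all probe sets stayed within 0.03 of 0. Of the 34, 31 were higher in Mb1-Cre tumours than in wild type, where 46.4% of all probe sets were. In Aid-Cre tumours 9 of 34 were higher (52.0% of all), and in Sca1-Cre tumours 2 of 34 (46.0% of all). With the lines weighted equally, all tumours had 9 of 34 higher (48.8% of all) and a median of -0.14. Pre-tumour spleens, in which 9 of 34 were higher (51.6% of all), had a median of -0.12. These comparisons share the same 3 wild-type arrays.

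Group differences were tested with limma over all 41345 probe sets, and calls were made where the p adjusted by Benjamini-Hochberg was under 0.05. No immunoglobulin probe set of 34 was called against wild type in any group. The share of all probe sets called by limma was 0.104% for all tumours, 0.0774% for Aid-Cre tumours, 0.00726% for Mb1-Cre tumours, 0.239% for Sca1-Cre tumours and 0.0242% for Sca1-Cre pre-tumour spleens. At an unadjusted p under 0.05 the members numbered 2 for all tumours (9.9% of all probe sets), 3 for Aid-Cre (9.18%) and 6 for Mb1-Cre (11.1%), each higher (4.36% of all were higher). They numbered 9 for Sca1-Cre tumours (12.3%), 8 of them lower (6.89% of all were lower), and 1 for pre-tumour spleens (6.86%). Sca1-Cre tumours against Sca1-Cre pre-tumour spleens gave 0 calls by limma among the 34 and 0 among all probe sets (0.0%), and 4 members at an unadjusted p under 0.05 (6.02% of all), each lower (3.87% of all were lower). In that comparison 4 of 34 were higher (44.1% of all) and the median was -0.33. The p-values set each difference against the spread between animals within groups, pooled over all groups, and the number of arrays limits their precision. That spread was unequal. The median SD of the 34 was 1.09 in Sca1-Cre tumours and 0.31 to 0.45 in the other groups.

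The contrast between lines was wider. Mb1-Cre tumours exceeded Sca1-Cre tumours in 34 of 34 probe sets (51.7% of all probe sets), with a median difference of 0.93, and 22 had an unadjusted p under 0.05 (15.7% of all), each higher (6.58% of all). One was called by limma, against 0.0701% of all probe sets. Aid-Cre tumours lay above Mb1-Cre tumours in 1 of 34 (56.5% of all) and below them in 33, with a median of -0.63. At an unadjusted p under 0.05 there were 12 (9.71% of all), each lower (3.53% of all), but 0 were called by limma (0.0169% of all). Aid-Cre against Sca1-Cre tumours also gave 0 calls by limma (0.0943% of all), with 26 of 34 higher (57.0% of all), a median of 0.26 and 2 members at an unadjusted p under 0.05 (14.1% of all).

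The low Sca1-Cre median rested on 2 spleens, although this did not hold for each probe set. With Sca1-Cre tumour replicates 3 and 4 left out, a choice made after their low values were seen, the median difference of Sca1-Cre tumours from wild type was 0.12, with 21 of 34 above 0. Without replicate 3 alone it was -0.26 and without replicate 4 alone -0.42. With both left out, Sca1-Cre tumours lay above pre-tumour spleens in 25 of 34 (median 0.25), Aid-Cre tumours above Sca1-Cre tumours in 5 of 34 (median -0.41), and all tumours above wild type in 22 of 34 (median 0.07). Mb1-Cre tumours then exceeded Sca1-Cre tumours in 25 of 34, with a median of 0.18 and 6 at an unadjusted p under 0.05. In Aid-Cre tumours the median difference from wild type was -0.12 without replicate 2. Without the 2 arrays that held pancreatic transcripts, Mb1-Cre tumours lay above wild type in 25 of 34, with a median of 0.21 and 1 member at an unadjusted p under 0.05. Shares over all probe sets with these arrays left out are not given here. The counts in this paragraph were therefore not set against a background.

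Aid-Cre tumours lay wholly below wild type in 3 of 34 probe sets (3.91% of all), Mb1-Cre tumours wholly above in 7 of 34 (3.44%), and Sca1-Cre tumours wholly below in 2 (7.35%). Pre-tumour spleens lay wholly above in 1 (8.25%) and wholly below in 5 (8.43%), and limma called none of these. Sca1-Cre tumours lay wholly below pre-tumour spleens in 1 (5.04%). Between lines, Aid-Cre tumours lay wholly below Mb1-Cre tumours in 6 (0.924%), and Mb1-Cre tumours wholly above Sca1-Cre tumours in 6 (2.09%).

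Among probe sets listing only a heavy chain constant gene, an Ighg3 probe set separated the lines most. The Ighg3 probe set 17284344 read 12.19, 10.47, 11.84, 11.34 and 11.22 in Mb1-Cre tumours. Values were 11.18, 7.74, 9.23 and 10.21 in Aid-Cre tumours and 8.69, 8.01, 6.01 and 9.22 in Sca1-Cre tumours. Pre-tumour spleens read 9.48, 8.88 and 9.24, and wild-type spleens 9.49, 9.30 and 10.36. Each Mb1-Cre tumour array was above each pre-tumour and wild-type array, and each Sca1-Cre tumour array was below each wild-type array. Mb1-Cre tumours averaged 11.41 and Sca1-Cre tumours 7.98, a difference of 3.43 ± 0.65 (SE) or 10.8-fold, which limma did not call (adjusted p = 0.0604). Without Sca1-Cre replicates 3 and 4 this difference was 3.06 (adjusted p = 0.228, limma). Mb1-Cre tumours differed from wild type by 1.70 ± 0.70 (adjusted p = 0.389, limma) and Sca1-Cre tumours by -1.73 ± 0.73 (adjusted p = 0.346, limma).

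The other Ighg3 probe set, 17284614, gave another order. It read 6.40, 4.95, 6.42 and 5.47 in Aid-Cre tumours, 7.88, 7.63 and 7.91 in pre-tumour spleens and 8.49, 8.15 and 7.76 in wild type. All 4 Aid-Cre tumour arrays lay below the 6 pre-tumour and wild-type arrays, a separation found in 1 of 34 members and 0.747% of all probe sets. The difference from wild type was -2.32 ± 0.60, not called by limma (adjusted p = 0.182). Mb1-Cre tumours ranged from 7.18 to 9.50 and Sca1-Cre tumours from 5.18 to 7.96 on this probe set, so both overlapped wild type. The 2 probe sets listing Ighg3 thus disagreed on Aid-Cre tumours, where 17284344 differed from wild type by only -0.13 ± 0.73. Which of them reads the Ighg3 constant region was not tested.

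The called probe set was 17284354, which lists Ighg3, Ighv1-47 and Ighm together and was among the brightest. It read 13.44, 13.34, 13.38, 13.55 and 13.47 in Mb1-Cre tumours, against 12.97, 12.98, 12.75 and 12.44 in Sca1-Cre tumours. Pre-tumour spleens read 13.03, 13.08 and 13.11, and wild-type spleens 13.24, 13.16 and 13.28. Every Mb1-Cre tumour array exceeded, and every Sca1-Cre tumour array fell short of, all 6 pre-tumour and wild-type arrays, and it was the only one of 34 with Sca1-Cre tumours wholly below the 6 (1.66% of all probe sets). Mb1-Cre tumours were higher than Sca1-Cre tumours by 0.65 ± 0.10, or 1.57-fold (adjusted p = 0.0306, limma). The SD of this probe set was 0.26 in Sca1-Cre tumours and 0.04 to 0.16 in the other groups. With only the compared groups in the fit, the adjusted p was 0.141 (limma). Under 21 alternative settings the difference ranged from 0.46 to 0.82 and the adjusted p from 0.0124 to 0.225, with the call kept in 11. It was lost without Mb1-Cre replicate 3, 4 or 5 or Sca1-Cre replicate 4 (adjusted p = 0.0682, 0.0932, 0.0577 and 0.0732, limma), and without both Sca1-Cre replicates 3 and 4 (0.46, adjusted p = 0.225, limma).

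**Figure D2:**
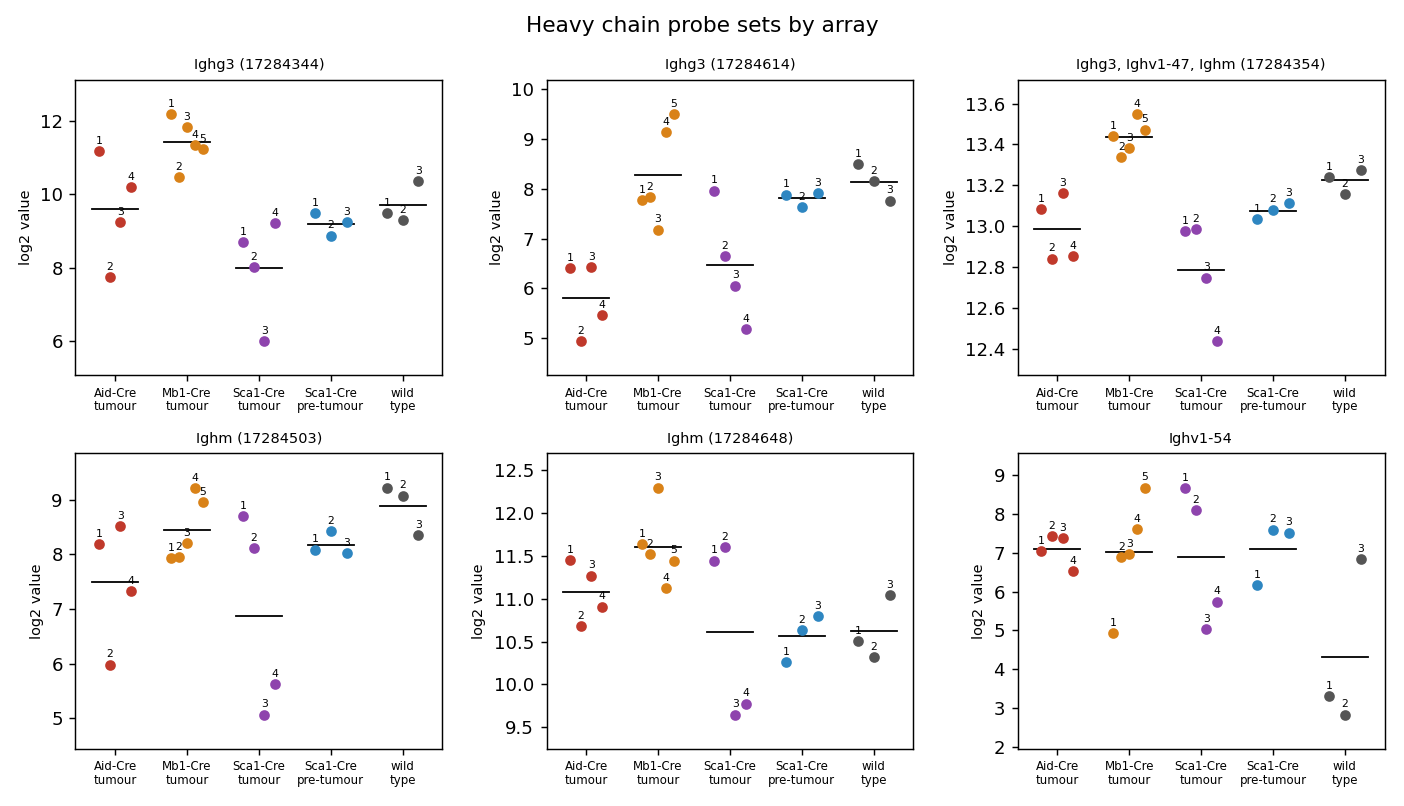
Log2 values of 6 heavy chain probe sets are plotted for each spleen by group, with replicate numbers at the points and horizontal lines at group means. On Ighg3 17284344 the 5 Mb1-Cre tumour spleens lie between 10.47 and 12.19, above all pre-tumour and wild-type spleens, and on Ighv1-54 the wild-type spleens range from 2.83 to 6.85.

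The 7 Ighm probe sets did not follow a single pattern. In Mb1-Cre tumours 5 of 7 lay above wild type, with differences from -0.49 to 0.98, and in Sca1-Cre tumours 7 of 7 lay below it, from -2.01 to -0.00; limma called none of these (smallest adjusted p = 0.378 and 0.268). Probe set 17284648 read 11.64, 11.52, 12.30, 11.13 and 11.44 in Mb1-Cre tumours, 10.26, 10.64 and 10.80 in pre-tumour spleens and 10.51, 10.32 and 11.04 in wild type. The Mb1-Cre tumour arrays did not overlap with either group, and the difference from wild type was 0.98 ± 0.40 (adjusted p = 0.380, limma). Probe set 17284503 read 8.70, 8.12, 5.06 and 5.62 in Sca1-Cre tumours and 9.23, 9.08 and 8.36 in wild type. Its low Sca1-Cre mean came from replicates 3 and 4: the difference was -2.01 ± 0.75 with them (adjusted p = 0.268, limma) and -0.48 without them. Probe set 17284660 was below wild type in pre-tumour spleens, at 10.24, 9.89 and 10.59 against 11.04, 11.08 and 11.70, with a difference of -1.03 ± 0.66 (adjusted p = 0.798, limma). The brightest Ighm probe set, 17284349, ranged from 12.74 to 13.47 over all 19 arrays. The remaining ones, 17284360, 17284507 and 17284605, differed from wild type by 0.58, 0.04 and 0.25 in Mb1-Cre tumours and by -0.23, -0.94 and -0.39 in Sca1-Cre tumours.

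Among heavy chain V segments, Ighv1-54 had the largest differences from wild type, and they rested on the wild-type arrays. Aid-Cre tumours read 7.04, 7.43, 7.38 and 6.54, Mb1-Cre tumours ranged from 4.94 to 8.68, Sca1-Cre tumours read 8.67, 8.11, 5.03 and 5.74, and pre-tumour spleens read 6.17, 7.60 and 7.52. Wild-type spleens read 3.30, 2.83 and 6.85. Wild-type replicate 3 lay within the range of the other groups, and replicates 1 and 2 lay below every other array. All tumours were higher than wild type by 2.67 ± 0.85, which limma did not call (adjusted p = 0.268). Leaving out 1 array at a time moved this difference between 1.93 and 3.93. Pre-tumour spleens differed from wild type by a similar 2.77 ± 1.08 (adjusted p = 0.620, limma).

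Ighv1-47 read 10.45, 10.53, 10.16, 8.52 and 9.30 in Mb1-Cre tumours, against 9.43, 8.32, 7.20 and 6.93 in Sca1-Cre tumours, with a difference of 1.82 ± 0.70 (adjusted p = 0.227, limma) that was 0.92 without Sca1-Cre replicates 3 and 4. Its values were 7.27, 9.06 and 7.16 in pre-tumour spleens and 9.19, 8.12 and 8.93 in wild type. Mb1-Cre replicates 1 and 2 were at least 1 above all 6 of these arrays. Ighv1-53, the third heavy V segment measured alone, ranged from 8.98 to 11.83 over all arrays and was lowest in Sca1-Cre tumour replicate 3.

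For the kappa chain, the Igkv4-70 and Igkv4-72 segments were higher in Mb1-Cre tumours than in all 6 pre-tumour and wild-type spleens. Igkv4-70 read 12.69, 12.19, 12.23, 12.49 and 12.22 in Mb1-Cre tumours, 11.57, 11.43 and 11.59 in pre-tumour spleens and 11.67, 11.34 and 11.74 in wild type. The difference from wild type was 0.78 ± 0.29 and was not called by limma (adjusted p = 0.325). Igkv4-72 ranged from 12.21 to 12.77 in Mb1-Cre tumours, against 11.49 to 12.18 over the pre-tumour and wild-type arrays, with a difference from wild type of 0.48 ± 0.21 (adjusted p = 0.420, limma). With 17284344, 17284354 and 17284648 these made 5 of 34 probe sets in which every Mb1-Cre tumour array exceeded all 6, where 1.5% of all probe sets did so. Against wild type alone, 7 of 34 did not overlap upwards (3.44% of all), Igkv4-59 and Igkv5-43 probe set 17467483 being the other two.

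Sca1-Cre tumours had lower mean kappa values than wild type in most probe sets. Igkv8-30 read 10.38, 9.36, 8.04 and 8.31 in Sca1-Cre tumours and 10.43, 9.76 and 10.59 in wild type, a difference of -1.24 ± 0.51 (adjusted p = 0.329, limma) that was -0.39 without Sca1-Cre replicates 3 and 4. In Aid-Cre tumours Igkv8-30 read 9.88, 8.75, 9.16 and 8.50, a difference of -1.18 ± 0.51 (adjusted p = 0.498, limma). The bright Igkv5-43 probe set 17459421 differed by -0.40 ± 0.16 between Sca1-Cre tumours and wild type (adjusted p = 0.303, limma). Igkj1, a joining segment, averaged 11.69 in Mb1-Cre tumours, 10.56 in Sca1-Cre tumours and 11.08 in wild type. Its Sca1-Cre tumour values were 11.50, 11.49, 8.93 and 10.32, so replicates 1 and 2 lay above all wild-type arrays (10.84 to 11.33). Mb1-Cre tumours exceeded Sca1-Cre tumours by 1.13 ± 0.40 (adjusted p = 0.196, limma), and by 0.19 without Sca1-Cre replicates 3 and 4. The probe set listing Igkv4-53, Igkj1 and Igkv6-23 (17459423) hardly varied, from 13.33 to 13.66 over all arrays.

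In the Sca1-Cre line, tumour and pre-tumour spleens were also compared for kappa segments. Igkv5-43 probe set 17467483 read 10.17, 9.91, 8.04 and 8.32 in Sca1-Cre tumours and 11.70, 9.77 and 10.05 in pre-tumour spleens, a difference of -1.40 ± 0.52 (adjusted p = 0.800, limma). The groups overlapped, with pre-tumour replicate 1 high and tumour replicates 3 and 4 low. The difference was -0.80 without pre-tumour replicate 1 and -0.47 without tumour replicates 3 and 4. Igkv15-103 differed by 0.27 between Sca1-Cre tumours and pre-tumour spleens, and by -0.070 without tumour replicate 4. In pre-tumour spleens Igkv6-23 read 8.90, 8.51 and 8.67, against 7.53 to 8.45 in the 3 wild-type spleens, without overlap but with a difference of only 0.70 ± 0.59 (adjusted p = 0.858, limma). Igkv9-120 averaged nearly the same in Mb1-Cre tumours and wild type, with a range of 10.02 to 12.67 over all arrays.

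The only lambda member, Iglv1, read 10.80, 11.17, 11.81, 11.34 and 11.61 in Mb1-Cre tumours, against 11.82, 10.55, 9.06 and 9.48 in Sca1-Cre tumours. Pre-tumour spleens read 10.12, 10.26 and 10.79, and wild-type spleens 10.20, 11.05 and 10.14. The difference between Mb1-Cre and Sca1-Cre tumours was 1.12 ± 0.41 (adjusted p = 0.210, limma) and 0.16 without Sca1-Cre replicates 3 and 4. Both groups overlapped wild type.

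Single segments far above the other arrays, as a dominant clone would give, were sought by the gap between the highest array and the next one. In 3 of 34 probe sets 1 array was at least 1 above every other array (0.943% of all probe sets), and in 2 of these it was a tumour array (0.851% of all). No immunoglobulin probe set had a gap of 2 (0.152% of all), and no test was made of these gaps. Igkv6-14 was at 10.76 in Mb1-Cre tumour replicate 2 and at 9.45 in the next array, a gap of 1.31 or 2.49-fold. That spleen also carried the pancreatic transcripts, whose part in the result was not tested. Igkv8-19 was at 9.54 in Mb1-Cre tumour replicate 5 and at 8.33 in the next array, a gap of 1.20 or 2.30-fold.

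The third was Igkv5-43, and its array was a spleen without tumour. Probe set 17467489 was at 12.46 in Sca1-Cre pre-tumour replicate 1 and at 11.37 in the next array, a gap of 1.09. Probe set 17467483, which lists the same symbol, was also highest in that spleen, at 11.70 against 11.23. The third Igkv5-43 probe set, 17459421, read 12.98 there, within the range of the other arrays. The other pre-tumour spleens read 10.45 and 10.65 on 17467489 and 9.77 and 10.05 on 17467483.

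**Figure D3:**
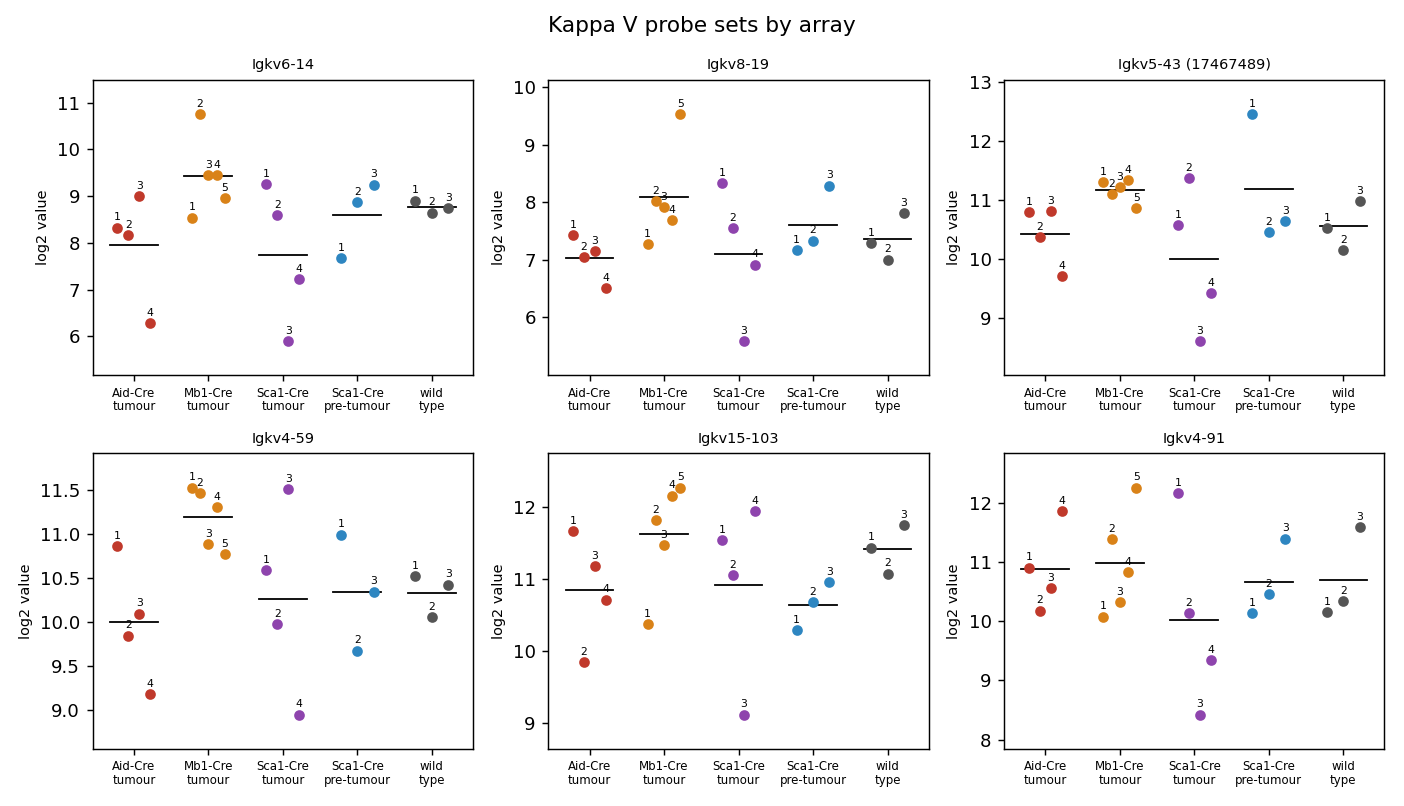
Log2 values of 6 kappa V probe sets are plotted for each spleen by group, with replicate numbers at the points and horizontal lines at group means. Igkv6-14 stands out in Mb1-Cre tumour replicate 2 (10.76), Igkv8-19 in Mb1-Cre tumour replicate 5 (9.54) and Igkv5-43 in Sca1-Cre pre-tumour replicate 1 (12.46), while Igkv4-59 stays at 11.52 in Sca1-Cre tumour replicate 3, where the other 5 have their lowest values.

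Against the 6 pre-tumour and wild-type arrays alone, a few members were at least 1 above in single tumour spleens. These were 2 in Mb1-Cre replicates 1, 2 and 3 each (0.634%, 0.457% and 0.556% of all probe sets), 3 in replicate 5 (1.15%) and 1 in Sca1-Cre replicate 1 (0.133%). Ighg3 17284344 in Mb1-Cre replicate 1 had the widest margin, 1.83. Mb1-Cre replicate 5 held Ighg3 17284614, Ighv1-54 and Igkv8-19. It was also the highest of all 19 arrays in 11 members, and the 5 Mb1-Cre tumour arrays together were highest in 23 of 34. Shares over all probe sets are not given here for these counts of highest arrays, which were therefore not set against a background.

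Sca1-Cre tumour replicate 3 was the lowest of all arrays in 20 of 34 members (share over all probe sets not given here). In 19 of 34 it lay at least 1 below all 6 pre-tumour and wild-type arrays, where 0.704% of all probe sets did. Its median difference from the wild-type mean was -1.72. Not every segment was low there. The probe set listing Ighv1-54, Igkv1-135 and Ighm (17284356) was at 13.33, its highest value of any array. Igkv4-59 was at 11.52, Igkv4-70 at 11.81 and Igkv4-72 at 11.79, each within 1 of its highest array, whereas Igkv4-91 was at 8.42, its lowest value.

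Sca1-Cre tumour replicate 4 was lowest in 7 of 34 members and at least 1 below all 6 in 4 (0.249% of all probe sets), with a median difference of -1.12. Here Igkv15-103 was at 11.94, above all 3 wild-type arrays (11.07 to 11.75), while Igkv4-59 was at 8.94 and Igkv4-70 at 10.37, their lowest values. Aid-Cre tumour replicate 2 was lowest in 5 members and at least 1 below all 6 in 7 (1.8% of all), with a median of -0.50. These 3 spleens together held the lowest array of 32 of 34 probe sets. Such counts of lowest arrays were not set against a share over all probe sets. In 5 of 34 the lowest array was at least 1 below every other array (0.527% of all). Sca1-Cre tumour replicates 1 and 2 had medians of 0.32 and -0.13.

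To allow for spleens in which most kappa segments were low, each of the 15 probe sets listing a single kappa V symbol was set against the median of those 15 on the same array, and this lead was compared for the same probe set between arrays. In 3 of 15 a spleen's lead exceeded that of every other array by at least 1. None of these 3 was the brightest kappa V probe set of its spleen: they ranked 4, 2 and 3 of 15 in the order below, and brightness differs between probe sets. Igkv4-59 led the median of 8.61 by 2.90 in Sca1-Cre tumour replicate 3, against at most 1.17 in any other array. Igkv15-103 led the median of 9.35 by 2.59 in Sca1-Cre tumour replicate 4, against at most 1.20. Igkv5-43 17467483 led by 1.41 in Sca1-Cre pre-tumour replicate 1, against at most 0.16. Igkv4-91 in Aid-Cre tumour replicate 4, at 11.85, led by 2.14, against at most 1.57 elsewhere. In Sca1-Cre tumour replicate 3 Igkv4-70 (11.81), Igkv4-72 (11.79) and the Igkv5-43 probe set 17459421 (13.03) lay further above that median than Igkv4-59 did. The absolute values of Igkv4-59 and Igkv15-103 in those spleens were reached or passed in Mb1-Cre tumours (up to 11.53 and 12.27).

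**Figure D4:**
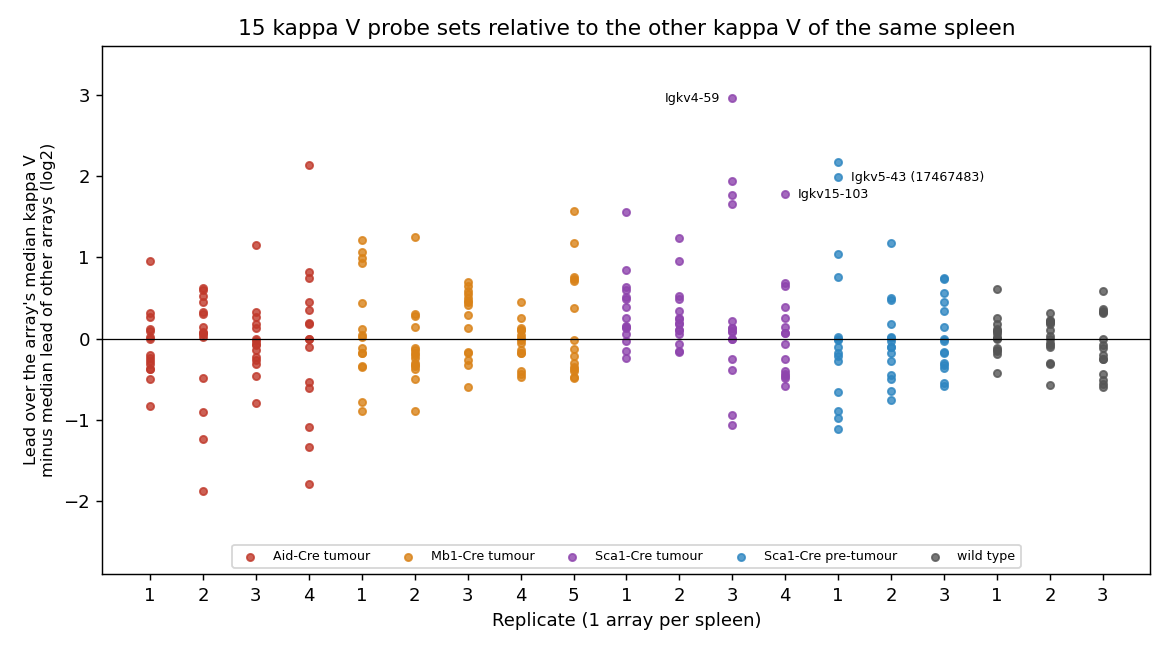
Each point is 1 of 15 kappa V probe sets in 1 spleen: its lead over the median kappa V probe set of that array, minus the median of the same lead in the other arrays (log2). The labelled points exceed every other array's lead by at least 1, namely Igkv4-59 in Sca1-Cre tumour replicate 3, Igkv15-103 in Sca1-Cre tumour replicate 4 and Igkv5-43 in Sca1-Cre pre-tumour replicate 1, while the wild-type points lie within 1 of 0.

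By the median SD, immunoglobulin probe sets varied more between animals than other probe sets did. Their median SD within a group was 0.45 in Aid-Cre, 0.39 in Mb1-Cre and 1.09 in Sca1-Cre tumours, 0.31 in pre-tumour spleens and 0.37 in wild type. Over the 12634 probe sets at least as bright as the dimmest member, the median SD was 0.32, 0.27 and 0.26 in the tumour groups in the same order, 0.18 in pre-tumour spleens and 0.19 in wild type. The gap was widest in Sca1-Cre tumours, and no test of it was made. Single members differed widely, with SDs from 0.02 to 1.17 in pre-tumour spleens and from 0.04 to 1.37 in Mb1-Cre tumours. Members and other probe sets were not matched for brightness.

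Of 10 B cell genes listed, 9 were measured, and in Mb1-Cre tumours 9 of 9 were below wild type (list means by array from -2.06 to -0.45) with 0 called by limma (0.00726% of all probe sets) and 1 at an unadjusted p under 0.05 (11.1% of all), while immunoglobulin medians by array were -0.02 to 0.49. As groups, the other lines were lower than wild type in both, with B cell list means of -1.16 for Aid-Cre and -0.79 for Sca1-Cre tumours. Exceptions by array were B cell list values of 0.29 and 0.15 in Aid-Cre replicates 3 and 4 and 0.07 in Sca1-Cre replicate 1. Immunoglobulin was at 0.08 in Aid-Cre replicate 1 and 0.32 in Sca1-Cre replicate 1. Of the 9 genes, 0 were called by limma in either line (0.0774% and 0.239% of all probe sets). At an unadjusted p under 0.05 there were also 0 (9.18% and 12.3% of all). In Sca1-Cre tumour replicate 3 the B cell list was at -2.41 and immunoglobulin at -1.72. In replicate 4 they were at -0.46 and -1.12, with the germinal centre list at 3.49. In Aid-Cre tumour replicate 2 the B cell list was at -3.82 and immunoglobulin at -0.50. The neutrophil list ran from 1.77 to 3.12 in Mb1-Cre tumours and from -1.18 to 1.10 in wild type, relative to the wild-type mean. The part of these markers in the immunoglobulin results was not tested.

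The plasma cell list stayed closer to wild type, and in Mb1-Cre tumours 7 of its 10 genes were above wild type and 3 below. Limma called 0 of them (0.00726% of all probe sets). At an unadjusted p under 0.05 there were 2 (11.1% of all), 1 higher and 1 lower. By array the list mean was 0.03 to 0.30 in Mb1-Cre tumours, -0.68 to 0.00 in Aid-Cre tumours, -0.05 to 0.27 in Sca1-Cre tumours and -0.20 to 0.10 in wild type. Xbp1, which drives the secretory programme, averaged 9.97 ± 0.13 in Mb1-Cre tumours and 9.36 ± 0.14 in wild type (SD, n = 5 and 3), a difference of 0.61 ± 0.19 that limma did not call (adjusted p = 0.256). Jchain, which joins IgM and IgA units, averaged 11.34 ± 0.20 in Mb1-Cre tumours and 11.00 ± 0.28 in wild type. The 3 below wild type in Mb1-Cre tumours were Ell2 (-0.71 ± 0.16, adjusted p = 0.157, limma), Mzb1 (-0.40) and Irf4 (-0.24). Ell2, an elongation factor that favours secreted heavy chain RNA, was lower in Aid-Cre tumours by 1.01 ± 0.17 (adjusted p = 0.0451, limma), at 10.92 ± 0.16 against 11.93 ± 0.25, and was the only one of 10 measured plasma cell genes called there (0.0774% of all probe sets were called). Of 12 genes of antibody gene assembly, transcription and transport, 10 were measured and 0 were called by limma in any contrast. In all tumours against wild type 2 of these 10 passed an unadjusted p under 0.05 (9.9% of all), 1 higher and 1 lower. The lower was Pou2f2 (Oct-2), a factor that binds immunoglobulin promoters, at -0.76 ± 0.27 (adjusted p = 0.344, limma).

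**Figure D5:**
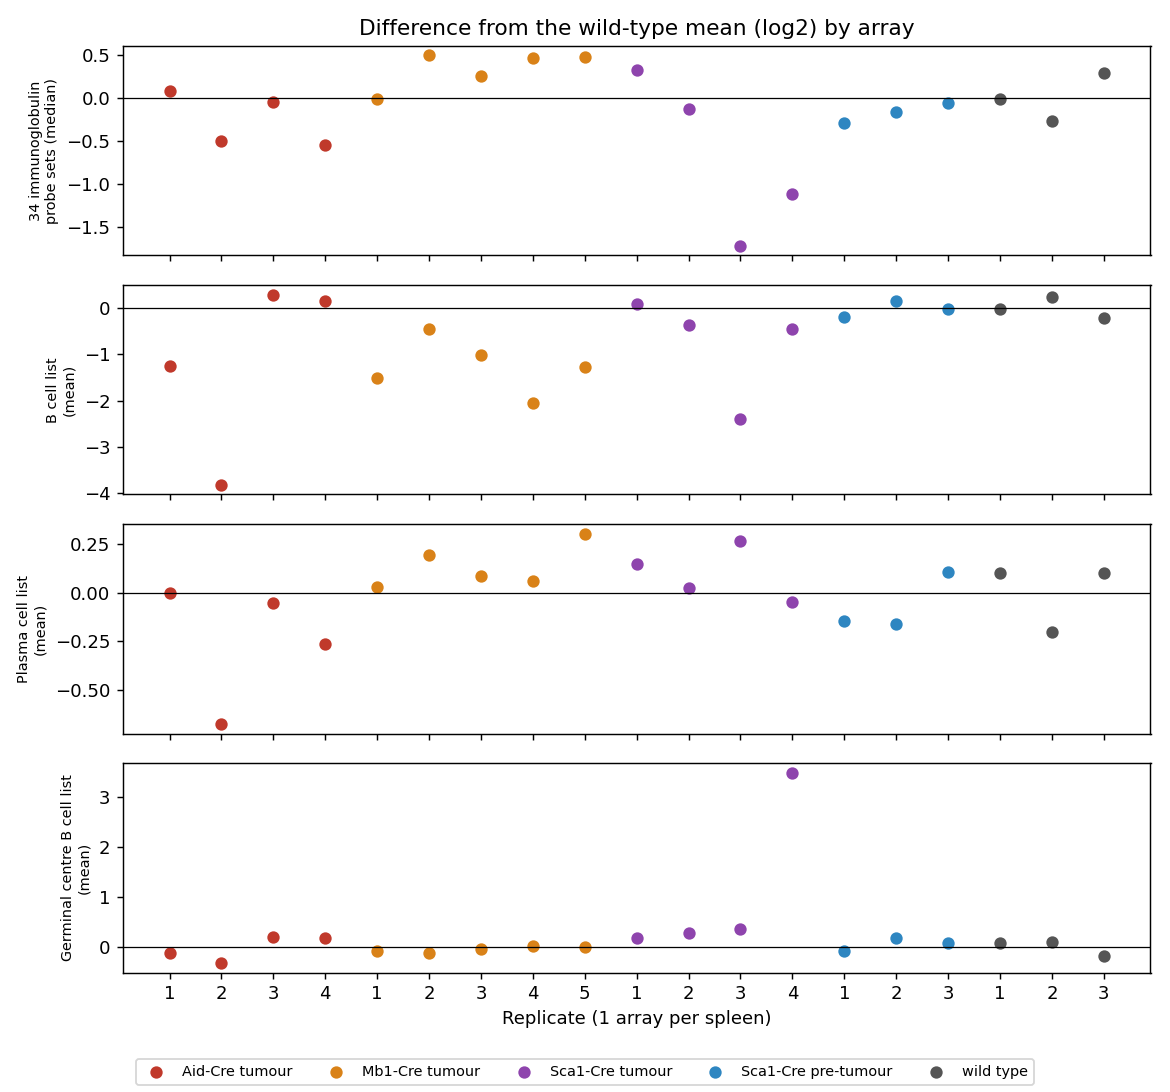
For each spleen, the panels show from top to bottom the median difference of the 34 immunoglobulin probe sets and the mean differences of the B cell, plasma cell and germinal centre B cell lists from the wild-type mean (log2). Immunoglobulin is lowest in Sca1-Cre tumour replicates 3 (-1.72) and 4 (-1.12), B cell genes are lowest in Aid-Cre tumour replicate 2 (-3.82), and germinal centre genes are highest in Sca1-Cre tumour replicate 4 (3.49).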

How the data were processed

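Arrays of 19 spleens were processed by the authors with RMA in oligo, per the submitters' processing notes, with versions not given in the notes used here. The table deposited by the authors holds one log2 level for each probe set and array, and those levels entered the fits without further normalization. Groups came from the sample labels. Symbols came from the platform annotation, in which 25335 probe sets have a symbol and 16010 have none, and all 23 member symbols matched the RefSeq gene table by gene identifier. No sequence of the members was used.

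One limma 3.58.1 fit (R 4.3.3) of 5 group means over all 19 arrays and 41345 probe sets gave 9 two-sided contrasts (residual degrees of freedom 14, prior 2.20), with Benjamini-Hochberg adjustment over all probe sets, and all tumours weighted the 3 lines equally. Errors after ± are standard errors for differences and SDs for means. All 34 members also passed a filter on dim probe sets, which kept 27020. The fit was also run on simulated data in which all groups shared 1 SD per probe set. That run does not cover the unequal spread between groups in these data. Named were called members, gaps of at least 1, constant genes and up to 3 members per direction with the smallest p in the first 6 contrasts; others were named after their values were seen. Members, lists and tests were chosen with earlier results of these data known. Alternatives were other normalizations, the dim filter, other fits, array weights, a replicate block, each array left out and, added after seeing the data, a sex covariate, both pancreatic arrays and Sca1-Cre tumour replicates 3 and 4 left out. Tables used pandas 2.3.3, and figures matplotlib 3.10.9.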

Additional observations from a re-analysis of the deposited data

Results flagged for a closer look

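By Dixon's criterion, 3 of 102 groups of immunoglobulin values and 3 of 24 groups of list means had 1 array far from the others. Igkv5-43 probe set 17459421 was at 12.69 in Aid-Cre tumour replicate 2, and the other Aid-Cre tumour arrays were at 13.21 to 13.32. Igkv5-43 probe set 17467483 was at 11.23 in Mb1-Cre tumour replicate 5, and the others of that group at 10.24 to 10.50. Igkv6-23 was at 9.06 in Mb1-Cre tumour replicate 4, and the others at 8.01 to 8.26. The germinal centre B cell list was at 3.49 in Sca1-Cre tumour replicate 4, and the others at 0.19 to 0.37. The exocrine pancreas list was at 2.73 in Mb1-Cre tumour replicate 2, and the others at -0.54 to -0.35. The antibody gene pathway list was at -0.49 in Aid-Cre tumour replicate 2, and the others at -0.08 to -0.01. Chance alone marks about 5% of such groups.

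Some differences between lines also stood out. Probe set 17284354 (Ighg3, Ighv1-47, Ighm) differed by 0.65 between Mb1-Cre and Sca1-Cre tumours (adjusted p = 0.0306, limma), with every Mb1-Cre tumour array above and every Sca1-Cre tumour array below all wild-type arrays (0.21 and -0.44). Its pre-tumour arrays were also all below wild type (-0.15, against 0.21 in Mb1-Cre tumours), and this difference between lines was not tested. Ighg3 probe set 17284344 was above wild type by 1.70 in Mb1-Cre tumours and below it in Sca1-Cre tumours (-1.73), and limma did not call the difference between them (adjusted p = 0.0604).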

How the results depend on the processing

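Of 1819 values recomputed, 1775 kept their direction and side of the threshold. Only 1 member was called as reported, so for most values the same side meant staying uncalled. The call of 17284354 was kept in 11 of 21 settings. For all tumours against wild type the count of called members was 0, and 1 with array weights (Ighv1-54, 3.32, adjusted p = 0.0360, limma). Array weights also raised the calls over all 41345 probe sets in that contrast, from 43 to 408. For Mb1-Cre against Sca1-Cre tumours the count of called members was 1, with 29 calls over all probe sets. It was 0 with arrays centred on their medians, with only the compared groups, with a variance trend and robust settings, with the replicate block, with both pancreatic arrays out and with Sca1-Cre tumour replicates 3 and 4 out; it was 2 with the dim filter and with array weights, and 0 to 1 when 1 array was left out. The adjusted p of 17284354 (limma) was 0.0501, 0.141, 0.0580, 0.117, 0.0642 and 0.225 in those 6 settings. Calls over all probe sets there numbered 32, 12, 18, 6, 11 and 3 in the same order. Ighg3 17284344 was called with the dim filter (0.0487) and array weights (0.0351). Calls over all probe sets tested were 34 with the dim filter and 43 with array weights. Deviations of same-numbered arrays from their group means correlated from -0.44 to 0.35. Differently numbered arrays were not compared, so this range cannot show whether the numbers pair arrays. Segments standing alone numbered 3, 7 with arrays centred on their immunoglobulin median, 0 at a gap of 2 and 2 to 4 with 1 array left out. Signs turned in 16 small differences. Igkv9-120 in Mb1-Cre tumours against wild type (-0.01) became 0.016 with cyclic loess, 0.012 with median centring, 0.10 with array weights and 0.032 with a sex covariate, and ranged from -0.19 to 0.31 with 1 array left out. Probe set 17459423 in Sca1-Cre tumours against wild type (0.03) became -0.14 with cyclic loess and -0.011 without both pancreatic arrays, and ranged from -0.011 to 0.079 with 1 array left out. In Sca1-Cre tumours against pre-tumour spleens, with 1 array left out, Ighv1-47 (0.14) ranged from -0.35 to 0.76 and Igkv15-103 (0.27) from -0.070 to 0.87. Ighm 17284605 in Mb1-Cre against Sca1-Cre tumours (0.64) became -0.019 without Sca1-Cre replicates 3 and 4. The cause was not tested in any of these. The number of arrays limits every test.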

Other observations

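With each array centred on the median of its own 34 immunoglobulin probe sets, 7 probe sets had 1 array at least 1 above every other. In Sca1-Cre tumour replicate 3 these were 17284356 (Ighv1-54, Igkv1-135, Ighm; gap 1.89), Igkv4-59 (1.83), Igkv4-70 (1.21) and Igkv4-72 (1.11). In Sca1-Cre tumour replicate 4 it was Igkv15-103 (1.33), and in Sca1-Cre pre-tumour replicate 1 both Igkv5-43 probe sets 17467483 and 17467489 (1.44 each). These values are gaps after centring and carry no test. In Sca1-Cre tumour replicate 3 the subtracted median was low, at 8.96. Bright probe sets that varied little between arrays were also highest there after centring. Among them were 17284349 (gap 0.97), 17284354 (0.94) and 17459421 (0.91). The part of brightness in these gaps was not tested.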
